A study of Mus musculus with 12 samples.

Results

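The nuclear genes for the subunits of oxidative phosphorylation were examined in bulk RNA-seq of whole embryonic telencephalons. They were chosen by symbol, as every gene whose name begins with Nduf followed by a, b, c, s or v and a number, with Uqcr, with Cox4 to Cox8 or with Atp5, together with Sdha, Sdhb, Sdhc and Sdhd. This rule found 86 of the 26190 genes of the table: 36 of complex I, 4 of complex II, 8 of complex III, 19 of complex IV (Ndufa4 included) and 17 of complex V. The remaining 2, Ndufa4l2 and Ndufa11b, are relatives of subunit genes and were kept apart from the complexes. Wild-type (WT) C57BL/6J mice gave 12 embryos, in the 4 groups E14.5 female, E14.5 male, E11.5 female and E11.5 male with 3 embryos each, and no group was treated. The whole telencephalon was taken, so its RNA comes from stem cells, neurons, vessels and blood together. In the study's embryo table, replicates 1 and 2 of both sexes at E14.5 share a mother and replicate 3 of both sexes comes from another. At E11.5 each replicate number marks a mother that gave 1 female and 1 male, although the study's text names fewer litters there. Each group carries its own series of sequencing identifiers, so series and group cannot be told apart.

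Oxidative phosphorylation takes place in the inner mitochondrial membrane. Complex I (NADH dehydrogenase) and complex II (succinate dehydrogenase) pass electrons to ubiquinone, complex III passes them on to cytochrome c, and complex IV reduces oxygen. Complexes I, III and IV pump protons, and complex V, the ATP synthase, uses the proton gradient to make ATP. All complexes but complex II also contain subunits encoded in mitochondrial DNA. The table holds 0 mitochondrially encoded genes, so those were not analysed here. In the developing brain, neural stem cells are known for a strong use of glycolysis and neurons for a greater reliance on oxidative phosphorylation.

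The libraries held 17551763 to 28355361 gene counts. To be tested, a gene needed a mean of 16 or more counts in 1 of the groups, which held for 14454 genes and for 79 of the 86 subunit genes. Of the neuron markers 12 of 12 rose with age, and their summed level in CPM, the share of a library's counts on a fixed scale, was 6809.8 to 8552 CPM at E14.5 and 2297 to 2741 CPM at E11.5. The sum of the neural stem cell markers was 2444 to 2859.7 CPM at E14.5 and 3479 to 3693 CPM at E11.5, and 2 of 10 rose and 6 fell. Erythroid markers summed to 871 to 1261 CPM at E14.5 and 4640.0 to 8204 CPM at E11.5, and 1 of 12 tested rose and 10 fell. Endothelial markers summed to 192 to 270.0 CPM at E14.5 and 248 to 283 CPM at E11.5 (1 of 6 rose, 0 fell), and markers of microglia and macrophages to 39.6 to 59.7 CPM at E14.5 and 32.5 to 35.9 CPM at E11.5 (2 of 6 rose, 1 fell). Markers of cardiac and skeletal muscle summed to 3.29 to 4.62 CPM at E14.5 and 0.994 to 1.33 CPM at E11.5, with 1 of 8 tested. In bulk samples, fewer cells of a type and less RNA per cell cannot be told apart, and the part of these shifts in the results below was not tested.

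The subunit genes were strongly expressed at both ages. Levels are given in FPKM, fragments scaled to transcript length and library size, which allows different genes to be compared. The library size used there exceeded the gene counts by an amount that differed between groups. Gene counts made up 87.9% to 88.9% of it at E11.5. Males at E14.5 had only 82.3% to 84.1%, while for females of that age the range was 85.5% to 87.0%. Relative to E11.5, FPKM thus places E14.5 libraries lower than CPM does, males most. The edgeR fold changes below come from the counts. The median tested subunit gene was at 57.1 FPKM at E14.5 and 67.4 FPKM at E11.5, and the median of all tested genes at 7.65 FPKM at E14.5 and 7.33 FPKM at E11.5. Atp5b, the catalytic beta subunit of the ATP synthase, had the highest level, 517 ± 44.2 FPKM at E14.5 and 620.1 ± 3.09 FPKM at E11.5 (SD, n = 6 each). The 86 genes together took 0.711% ± 0.0356 of all gene counts at E14.5 and 0.795% ± 0.0113 at E11.5 (SD, n = 6 each). The share was 0.772%, 0.715% and 0.704% in the E14.5 females and 0.716%, 0.694% and 0.663% in the E14.5 males, against 0.806%, 0.777% and 0.795% in the E11.5 females and 0.809%, 0.796% and 0.790% in the E11.5 males. Every E14.5 library lay below every E11.5 library, with E14.5 female 1 closest to the E11.5 values and E14.5 male 3 lowest. Replicate 3 of each sex, from the second E14.5 mother, had the lowest share of its sex at E14.5. The same embryos stood apart in the marker sums, with 8345 and 8552 CPM of neuron markers in female 3 and male 3, against 6809.8 to 7280.4 CPM in the other E14.5 embryos, and 2444 and 2460.0 CPM of neural stem cell markers, against 2665 to 2859.7 CPM. The part of these markers in the share was not tested. As a share of the summed FPKM of all genes, which weighs short transcripts more, the ages overlapped, with 1.89% to 2.09% at E14.5 and 1.94% to 2.03% at E11.5.

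**Figure D1:**
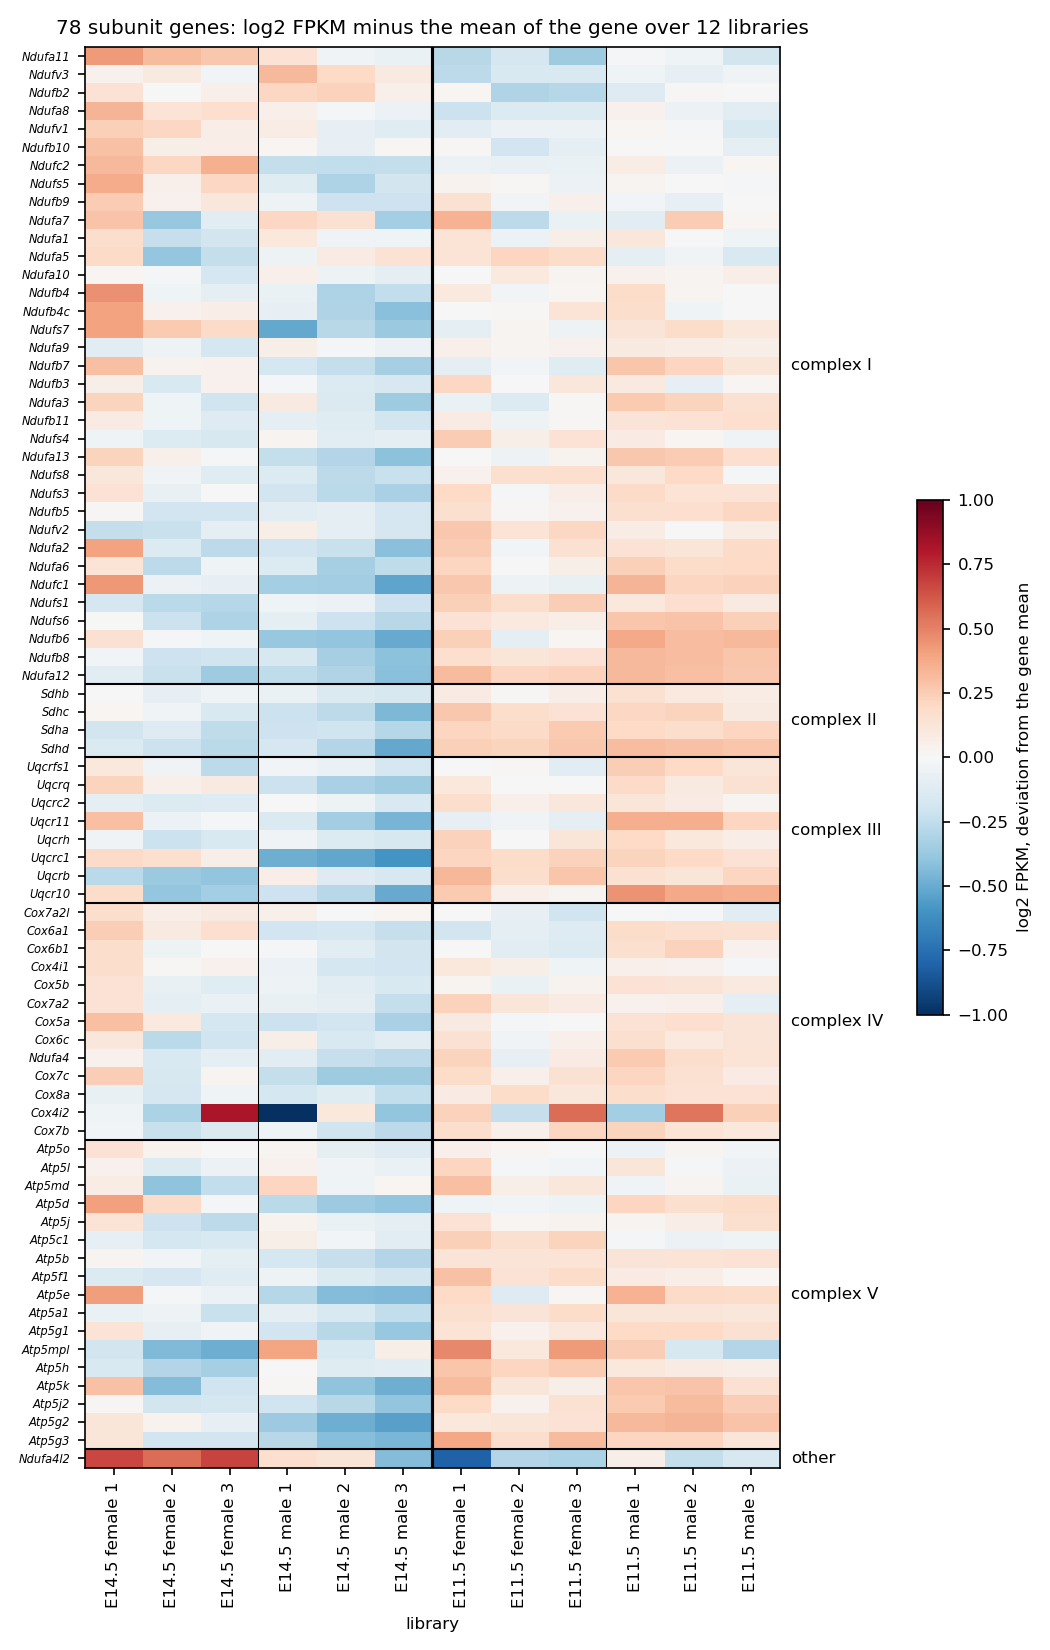
Heat map of 78 of the 79 tested subunit genes (rows, by complex) in the 12 libraries (columns, E14.5 left of E11.5), coloured by the log2 FPKM minus the mean of that gene over the 12 libraries, on a scale cut at -1 and 1. Most cells are pale, the E14.5 columns are bluer than the E11.5 columns for complex II, and the low-count genes Cox4i2 and Ndufa4l2 vary most.

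RefSeq promoter windows (GRCm38.p6, 250 bases before to 50 after the start) were matched by Entrez gene identifier for 67 of the 86 genes. The 5 shown belong to genes named in the results below, and each holds a match. Capitals mark matches to motifs of factors known for their part in the control of mitochondrial genes. The windows of Ndufa12, Sdha, Atp5b, Atp5d, Ndufc2 and Uqcr10, also named below, held no such match and are not shown. Nor are those of further genes named below, some without a match (such as Cox7a2l, Ndufv1, Atp5g1, Atp5g3, Cox7c and Ndufa4) and some with (such as Cox6a1 and Sdhb). The motifs were GCGCATGC for NRF1, CCGGAAG for ETS factors such as GABPA (also called NRF2) and AAGATGGC for YY1, each searched on both strands, and matches to the NRF1 motif on opposite strands overlapped in these windows. An NRF1 match was found in 10 of the 67 genes (14.9%) and in 3.05% of all 27025 genes with a window. An ETS match was found in 17 (25.4%) of the subunit genes and in 9.93% of all, and a YY1 match in 9 (13.4%) and in 3.19% of all. The motif TATAAA was found in 8 (11.9%) of the subunit genes and in 15.7% of all. The median window of the subunit genes held 19 CG dinucleotides, and that of all windows 7. A match describes the letters only. The windows of Uqcrc1 (chr9:108936398-108936697, plus strand), Atp5g2 (chr15:102670998-102671297, minus strand) and Ndufa11 (chr17:56717512-56717811, plus strand) hold NRF1 matches. The window of Sdhd (chr9:50603800-50604099, minus strand) holds an ETS match and that of Ndufs7 (chr10:80249199-80249498, plus strand) a YY1 match.
Uqcrc1: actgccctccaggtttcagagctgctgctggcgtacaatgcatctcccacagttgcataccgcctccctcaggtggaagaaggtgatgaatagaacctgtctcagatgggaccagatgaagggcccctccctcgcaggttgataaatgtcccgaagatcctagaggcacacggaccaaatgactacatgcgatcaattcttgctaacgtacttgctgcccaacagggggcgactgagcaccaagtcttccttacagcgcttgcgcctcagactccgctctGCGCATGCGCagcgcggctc
Atp5g2: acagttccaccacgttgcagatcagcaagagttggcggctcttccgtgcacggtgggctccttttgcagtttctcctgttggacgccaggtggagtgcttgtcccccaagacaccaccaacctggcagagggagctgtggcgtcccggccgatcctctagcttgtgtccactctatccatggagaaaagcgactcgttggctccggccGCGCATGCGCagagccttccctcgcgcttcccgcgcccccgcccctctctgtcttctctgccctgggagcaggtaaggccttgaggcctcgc
Ndufa11: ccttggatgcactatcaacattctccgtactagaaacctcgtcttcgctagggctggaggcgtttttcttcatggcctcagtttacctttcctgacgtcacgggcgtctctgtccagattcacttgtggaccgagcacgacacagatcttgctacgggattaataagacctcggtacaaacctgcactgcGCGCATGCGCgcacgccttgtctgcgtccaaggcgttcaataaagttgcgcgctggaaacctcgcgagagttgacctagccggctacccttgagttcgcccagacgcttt
Sdhd: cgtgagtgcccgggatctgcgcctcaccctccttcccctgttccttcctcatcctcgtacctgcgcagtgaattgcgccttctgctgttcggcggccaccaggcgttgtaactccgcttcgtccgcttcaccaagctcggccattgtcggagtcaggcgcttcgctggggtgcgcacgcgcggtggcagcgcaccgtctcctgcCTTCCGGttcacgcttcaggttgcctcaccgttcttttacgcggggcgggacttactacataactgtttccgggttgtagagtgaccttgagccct
Ndufs7: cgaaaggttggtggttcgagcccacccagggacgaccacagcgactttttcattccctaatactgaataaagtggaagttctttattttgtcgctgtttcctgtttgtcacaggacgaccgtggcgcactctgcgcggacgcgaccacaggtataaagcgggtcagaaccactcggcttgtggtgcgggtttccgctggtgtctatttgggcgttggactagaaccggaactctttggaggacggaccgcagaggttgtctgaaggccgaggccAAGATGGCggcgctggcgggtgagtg

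Between the ages the subunit genes moved little. Calls required a log2 fold change beyond 0.5 in either direction together with an adjusted p below 0.05, in edgeR's quasi-likelihood test with Benjamini-Hochberg adjustment over every tested gene. By this call 1 of the 79 tested subunit genes, Ndufa4l2, was higher at E14.5, where 24.4% of all tested genes were. None was lower, where 19.0% of all tested genes were. In that direction 43 subunit genes had an unadjusted p under 0.05, as did 6057 of all 14454 tested genes. DESeq2 called none lower either, and limma called 3 on log2(FPKM + 0.1) and 2 on log2(FPKM + 1). The log2 fold changes ran between -0.50 (Ndufa12) and 0.64 (Ndufa4l2), and 98.7% of them lay within 0.5 of 0, against 56.3% of all tested genes. For 70 of the 79 (88.6%) the whole 95% interval lay within 0.5 of 0, as it did for 42.1% of all tested genes.

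Small differences were nonetheless resolved, most of them downward. At the adjusted p alone, 9 subunit genes were higher and 41 lower at E14.5, against backgrounds of 40.1% higher and 41.6% lower. Within females 14 were higher and 27 lower, and within males 4 and 45. Of all 14454 tested genes 5397 were higher and 5436 lower in females, and 5380 and 5492 in males. Over both sexes the median log2 fold change was -0.13 for the subunit genes and -0.015 for all tested genes. The direction of this shift depended on the processing. The transcripts of the subunit genes are short, with a median of 763 bases against 3212 for all tested genes. With per-library offsets for GC content and transcript length, 32 were higher and 17 lower at the adjusted p alone, against backgrounds in that fit of 39.1% higher and 42.0% lower, and the median was 0.026, where that of all tested genes was -0.024. Of the 41 lower genes, 17 stayed lower with the offsets and 3 became higher, while 9 of the 9 higher genes stayed higher. The offsets were fitted to these same libraries and can also take up age changes that go with length. Age change and transcript length had a Spearman correlation of 0.193 across 14177 tested genes and of 0.0072 across 78 subunit genes. Which fit lies nearer to the true change was not tested.

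**Figure D2:**
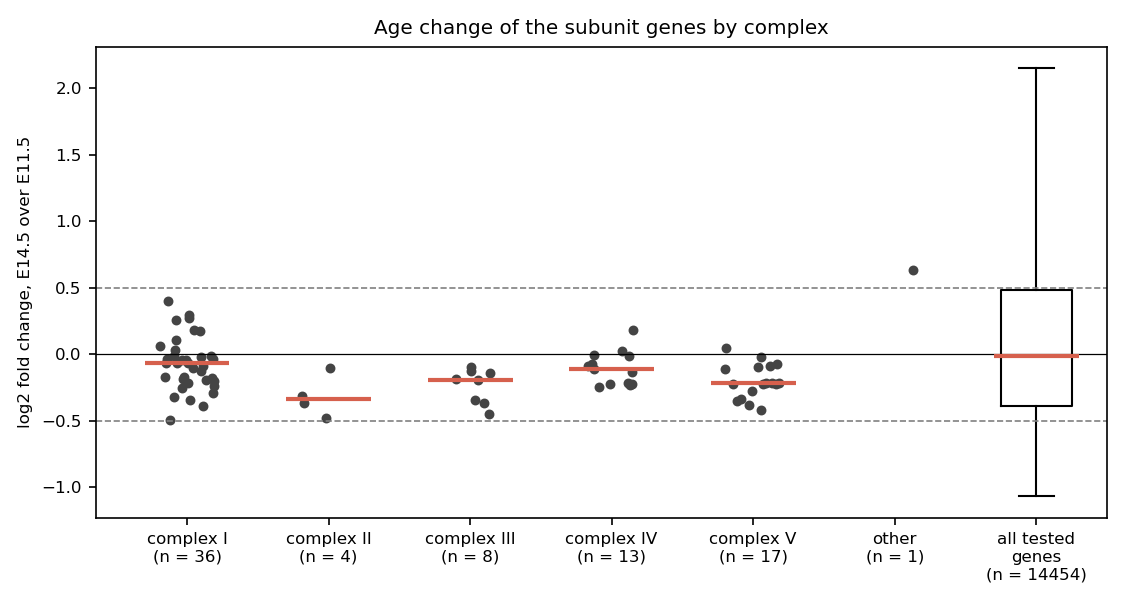
Log2 fold change, E14.5 over E11.5, of each tested subunit gene (points) by complex, with the median as a red line, beside a box of all 14454 tested genes (quartiles, whiskers at the 5th and 95th percentiles). All points but that of Ndufa4l2 lie between the dashed lines at -0.5 and 0.5.

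The ages did not overlap in CPM for 18 subunit genes, 15 of them lower and 3 higher at E14.5 (Ndufa11, Ndufv3 and Cox7a2l), where 55.5% of all tested genes did not overlap. By complex, the median log2 fold change was -0.069 for complex I (36 tested genes), -0.34 for complex II (4), -0.19 for complex III (8), -0.11 for complex IV (13) and -0.22 for complex V (17). With the offsets for GC content and length these medians were 0.11, -0.23, -0.018, 0.13 and -0.045 in the same order. The sign thus turned for complexes I and IV, and complex II had the lowest median in both fits.

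Complex I showed both signs, with 7 genes higher and 15 lower at the adjusted p alone, and 18 higher and 6 lower with the offsets for GC content and length. Ndufa12, an accessory subunit (GRCm38, chr10:94199035-94221438), had 28.3, 26.1 and 23.8 FPKM in E14.5 females and 25.6, 24.7 and 22.8 FPKM in E14.5 males, against 37.96, 35.3 and 35.7 FPKM in E11.5 females and 38.1, 37.4 and 36.7 FPKM in E11.5 males. Every E14.5 library was below every E11.5 library. The log2 fold change was -0.50 ± 0.0441 (SE, adjusted p = 6.47e-08), just inside the minimum, and -0.33 with the offsets for GC content and length. Ndufa11, an accessory subunit of the membrane arm (chr17:56717762-56724248), had 14.9, 13.9 and 13.4 FPKM in E14.5 females and 12.3, 10.8 and 10.6 FPKM in E14.5 males, against 9.18, 9.93 and 8.68 FPKM in E11.5 females and 10.96, 10.8 and 9.77 FPKM in E11.5 males. The E14.5 females were above all other libraries, and the E14.5 males overlapped the E11.5 males in FPKM. Its log2 fold change was 0.40 ± 0.0484 (SE, adjusted p = 1.88e-06).

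Ndufc2, an accessory subunit of the membrane arm and among the complex I genes with the highest levels, had 110.5, 102 and 113 FPKM in E14.5 females and 74.8, 74.5 and 74.9 FPKM in E14.5 males, against 85.01, 84.1 and 84.5 FPKM in E11.5 females and 92.9, 84.99 and 89.5 FPKM in E11.5 males. The E14.5 females lay above and the E14.5 males below all E11.5 libraries. The 7 core subunits carry the electron transfer. At the adjusted p alone 1 of them was higher and 5 lower, and 1 higher and 2 lower with the offsets. The higher one was Ndufv1, which binds NADH, with 55.2 ± 5.63 FPKM at E14.5 and 50.4 ± 2.15 FPKM at E11.5 (SD, n = 6 each, log2 fold change 0.18, adjusted p = 0.000933). Of the 29 accessory subunits, 6 were higher and 10 lower, and 17 higher and 4 lower with the offsets.

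Complex II, which has no mitochondrially encoded subunit, was lower in all 4 of its genes at the adjusted p alone, and in 3 of them with the offsets for GC content and length. Sdha, the flavoprotein that oxidizes succinate (chr13:74322255-74350240), served the study as the internal control of its quantitative PCR. That PCR compared the sexes at E14.5 only, not the ages. Sdha had 64.95, 67.5 and 61.8 FPKM in E14.5 females and 63.9, 64.3 and 60.4 FPKM in E14.5 males, against 85.5, 84.2 and 88.6 FPKM in E11.5 females and 84.8, 83.4 and 85.6 FPKM in E11.5 males. The ages did not overlap. The log2 fold change was -0.37 ± 0.0322 (SE, adjusted p = 5.68e-08), and -0.31 (adjusted p = 8.78e-08) with the offsets for GC content and length. Between the sexes Sdha had a log2 ratio of female to male of 0.0042 (adjusted p = 0.951) at E14.5 and of 0.056 (adjusted p = 0.56) at E11.5.

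Sdhd, a membrane anchor of complex II (chr9:50596340-50603849), had 55.6, 52.9 and 50.95 FPKM in E14.5 females and 54.8, 50.1 and 43.1 FPKM in E14.5 males, against 72.5, 71.8 and 74.04 FPKM in E11.5 females and 76, 75.3 and 74.3 FPKM in E11.5 males. Here too every E14.5 library was below every E11.5 library, with E14.5 male 3 lowest. Its log2 fold change was -0.48 ± 0.0449 (SE, adjusted p = 1.16e-07). The other anchor, Sdhc, had 57.1 ± 6.56 FPKM at E14.5 and 73.3 ± 3.17 FPKM at E11.5 (SD, n = 6 each, log2 fold change -0.32, adjusted p = 5.9e-06). Sdhb, the iron-sulfur subunit, moved least of the 4, with 74.1 ± 3.20 FPKM at E14.5 and 82.7 ± 2.66 FPKM at E11.5 (SD, n = 6 each). Its log2 fold change was -0.11 (adjusted p = 0.00504), and 0.021 (adjusted p = 0.526) with the offsets.

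In complex III, 7 of 8 genes were lower at the adjusted p alone and 0 higher. Under the same offsets 2 were lower and 1 higher. Uqcr10, a small subunit, had 25.4 to 40.8 FPKM at E14.5 (median 29.1) and 36.7 to 49.05 FPKM at E11.5 (median 44.6). E14.5 female 1 was the only E14.5 library within the E11.5 range. Its log2 fold change was -0.45 ± 0.0877 (SE, adjusted p = 0.000305). Uqcrb, which takes part in binding ubiquinone, had 66.5 to 91.4 FPKM at E14.5 (median 75.2) and 94.8 to 109.8 FPKM at E11.5 (median 100.1), a log2 fold change of -0.37 (adjusted p = 2.26e-06) and of -0.034 (adjusted p = 0.358) with the offsets for GC content and length. Uqcrh, the acidic hinge protein, had 136 ± 6.74 FPKM at E14.5 and 162 ± 9.40 FPKM at E11.5, and the core protein Uqcrc2 had 84.4 ± 3.46 FPKM at E14.5 and 96.3 ± 3.42 FPKM at E11.5 (SD, n = 6 each). Their log2 fold changes were -0.19 for Uqcrh (adjusted p = 0.000886) and -0.14 for Uqcrc2 (adjusted p = 0.00138), and 0.091 and 0.011 with the offsets.

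Several complex IV subunits have a further gene, known in the adult for expression in muscle, in testis or under low oxygen. In the telencephalon the widespread isoform held nearly all of the FPKM at both ages. Cox4i1 gave 99.4% ± 0.258 of the Cox4 pair at E14.5 and 99.3% ± 0.184 at E11.5 (SD, n = 6 each). It had 105 to 135 FPKM at E14.5 (median 117) and 116 to 128 FPKM at E11.5 (median 123), and its log2 fold change was -0.013 (adjusted p = 0.756) with a 95% interval between -0.10 and 0.071. With the offsets for GC content and length it was 0.14 (adjusted p = 0.000663), above that interval. Cox4i2, the oxygen-sensitive isoform, had 0.330 to 1.29 FPKM at E14.5 (median 0.651) and 0.582 to 1.08 FPKM at E11.5 (median 0.865), from mean counts of 14 at E14.5 and 16.2 at E11.5. Its log2 fold change was -0.23 (adjusted p = 0.446), with an interval between -0.87 and 0.41, so a difference within that interval was not detectable at this depth.

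The muscle isoforms Cox6a2 and Cox7a1 had at most 1 and 5 counts in any library. The testis isoforms Cox6b2 and Cox7b2 had at most 8 and 1. Cox8b, a muscle isoform, and Cox8c, a testis isoform, had 0 in all 12 libraries, as did Ndufa11b. A count of 0 allows up to 3 counts, which is 0.106 to 0.171 CPM depending on the library, and covers counting error only. None of these 7 genes reached the minimum for testing.

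Of the 13 tested complex IV genes, 1 was higher at the adjusted p alone and 4 lower, namely Cox8a, Cox7b, Cox7c and Ndufa4. In the fit with the offsets 9 were higher and 1 lower. Cox6a1 had a log2 fold change of 0.023 (adjusted p = 0.509), and of 0.077 (adjusted p = 0.0708) with the offsets. For Cox6b1 it was -0.0092 (adjusted p = 0.854), and 0.24 (adjusted p = 6.91e-06) with the offsets. Cox8a had 187 ± 9.71 FPKM at E14.5 and 227 ± 6.20 FPKM at E11.5, a log2 fold change of -0.23 (adjusted p = 2.56e-05). Cox7b had 57.4 ± 3.84 FPKM at E14.5 and 70.7 ± 3.22 FPKM at E11.5, and its log2 fold change of -0.25 (adjusted p = 0.000146) was -0.0027 with the offsets for GC content and length. Among the subunits with a single gene, Cox6c had 112 ± 11.7 FPKM at E14.5 and 127 ± 6.25 FPKM at E11.5, a log2 fold change of -0.13 (adjusted p = 0.0501) and of 0.17 (adjusted p = 0.000581) with the offsets. Cox7c had 106 ± 18.3 FPKM at E14.5 and 128 ± 5.43 FPKM at E11.5. For Cox7c the log2 fold change was -0.22 (adjusted p = 0.00178), and 0.12 (adjusted p = 0.0138) with the offsets. Ndufa4, long counted as a complex I subunit, was likewise at -0.22 (adjusted p = 0.00104) and at 0.12 (adjusted p = 0.00159) with the offsets.

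Cox7a2l, known for its place in respiratory supercomplexes (chr17:83501917-83514333), was the complex IV gene that was higher at E14.5. It had 86.5, 80.1 and 81.7 FPKM in E14.5 females and 79.3, 76.4 and 77.6 FPKM in E14.5 males, against 76.6, 72.5 and 66.9 FPKM in E11.5 females and 76.7, 75.5 and 70.96 FPKM in E11.5 males. In FPKM 1 E14.5 male lay within the E11.5 range, and in CPM the ages did not overlap. Its log2 fold change was 0.18 ± 0.0355 (SE, adjusted p = 0.00021). Its relative Cox7a2 had 75.2 ± 6.59 FPKM at E14.5 and 83.04 ± 6.22 FPKM at E11.5 (SD, n = 6 each, log2 fold change -0.092, adjusted p = 0.0807), and a log2 fold change of 0.16 (adjusted p = 0.000374) with the offsets. Cox7a2l held 49.8% to 53.8% of the FPKM of the pair at E14.5 and 44.4% to 49.1% at E11.5, so these shares did not overlap. Counts of 13 subunit genes, among them Cox7a2l, Atp5g2, Ndufb4 and Ndufb4c, were fractional in all 12 libraries, so reads shared with similar sequences may be part of their values. Ndufb4c held 37.6% ± 1.80 of the FPKM of Ndufb4c and Ndufb4 at E14.5 and 37.6% ± 1.20 at E11.5 (SD, n = 6 each).

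The ATP synthase genes were lower in 11 of 17 cases at the adjusted p alone and higher in 0, and lower in 5 and higher in 3 with the offsets for GC content and length. Atp5b had 576, 556 and 529 FPKM in E14.5 females and 502, 481 and 461 FPKM in E14.5 males, against 618, 617 and 622 FPKM in E11.5 females and 618, 623 and 624 FPKM in E11.5 males. The E11.5 libraries lay close together, and all E14.5 libraries were below them. The log2 fold change was -0.21 ± 0.0309 (SE, adjusted p = 1.27e-05), and -0.076 (adjusted p = 0.00947) with the offsets for GC content and length. Atp5a1, the alpha subunit, had 305 ± 16.99 FPKM at E14.5 and 369 ± 6.89 FPKM at E11.5 (SD, n = 6 each, log2 fold change -0.22, adjusted p = 3.41e-05). Atp5j2, a subunit of the membrane sector, had 102 to 135 FPKM at E14.5 (median 117) and 138 to 167 FPKM at E11.5 (median 156), a log2 fold change of -0.35 (adjusted p = 2.08e-06). For the small subunit Atp5k the log2 fold change was -0.34 (adjusted p = 0.0142), and -0.095 (adjusted p = 0.286) with the offsets.

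The rotating ring of the ATP synthase is built of a single protein, subunit c, that is encoded by Atp5g1, Atp5g2 and Atp5g3. Atp5g2 supplied 52.3% ± 2.17 of their summed FPKM at E14.5 and 52.5% ± 2.68 at E11.5 (SD, n = 6 each). Atp5g3 supplied 36.3% ± 1.71 at E14.5 and 37.3% ± 2.75 at E11.5, and Atp5g1 11.4% ± 0.571 at E14.5 and 10.2% ± 0.108 at E11.5. The share of Atp5g1 was above its E11.5 range in all E14.5 libraries, and the other shares overlapped. The log2 fold changes were -0.22 for Atp5g1 (adjusted p = 0.000297), -0.39 for Atp5g2 (adjusted p = 9.27e-08) and -0.42 for Atp5g3 (adjusted p = 4.55e-06), and 0.0088, -0.26 and -0.15 with the offsets.

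**Figure D3:**
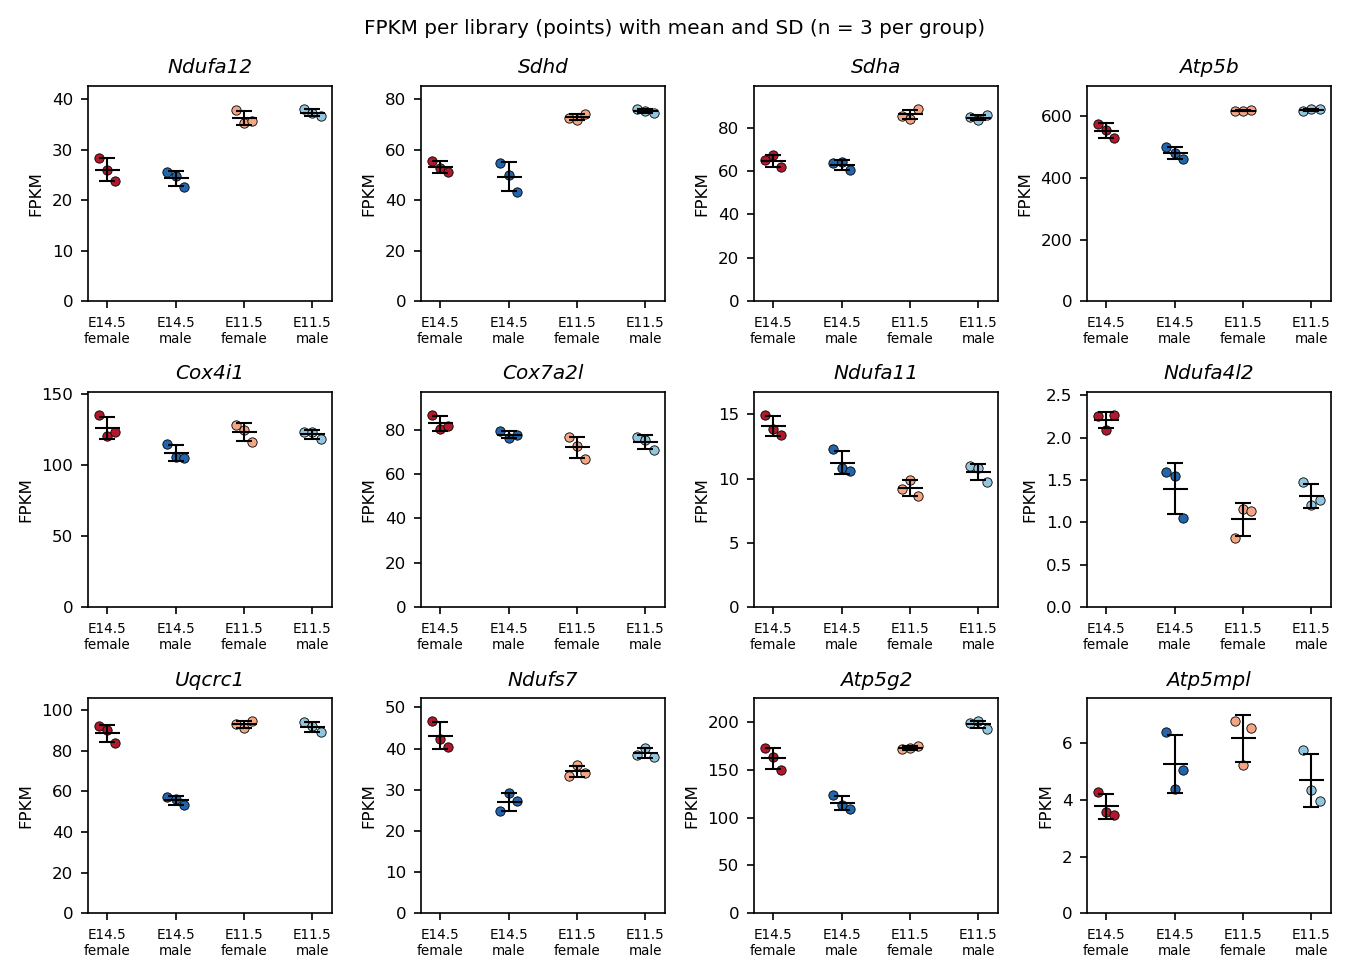
FPKM of 12 subunit genes in each library (points), with the mean and SD of the 3 libraries of each group, on axes that start at 0. Ndufa12, Sdhd, Sdha and Atp5b are lower in all E14.5 libraries, Cox4i1 overlaps between the ages, and Uqcrc1, Ndufs7 and Atp5g2 separate the E14.5 females from the E14.5 males.

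Ndufa4l2, the gene called with age (chr10:127514939-127517156), is known in other cells as a gene induced by low oxygen and was weakly expressed. It had 2.26, 2.09 and 2.27 FPKM in E14.5 females and 1.59, 1.55 and 1.05 FPKM in E14.5 males, against 0.813, 1.16 and 1.14 FPKM in E11.5 females and 1.48, 1.21 and 1.27 FPKM in E11.5 males. The E14.5 females stood above all other libraries, and the E14.5 males overlapped both E11.5 groups. The log2 fold change was 0.64 ± 0.147 (SE, adjusted p = 0.00102), from mean counts of 47.2 at E14.5 and 29.7 at E11.5. Within females it was 1.10 (adjusted p = 0.00018) and within males 0.17 (adjusted p = 0.476), and the difference between the sexes passed the interaction test at 0.93 (adjusted p = 0.0212). With the offsets for GC content and length that difference was 0.50 (adjusted p = 0.305).

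The sexes were compared within each age. At E14.5, 4 subunit genes were called higher in females, where 5.98% of all tested genes were, and 1 was called lower, where 5.62% were. With no minimum fold, 28 were higher and 7 lower in females, against backgrounds of 23.8% and 21.6%. At E11.5 edgeR called none, where 0.374% of all tested genes were called. There 21 subunit genes had an unadjusted p under 0.05, 9 higher and 12 lower in females. Of all 14454 tested genes, 1271 were higher and 1356 lower at that threshold. DESeq2 and limma called no subunit gene. By the adjusted p, 2 subunit genes were higher and 1 lower in E11.5 females (backgrounds 0.982% and 1.16%), and with the mother as replicate block 8 higher and 9 lower (backgrounds 8.07% and 8.66%).

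Uqcrc1, a core protein of complex III (chr9:108936648-108949641), had 91.97, 89.9 and 83.8 FPKM in E14.5 females and 57.3, 56.2 and 53.2 FPKM in E14.5 males, a log2 ratio of female to male of 0.63 ± 0.0441 (SE, adjusted p = 2.39e-07). The sexes were far apart, and the E11.5 libraries, at 89.1 to 94.5 FPKM, overlapped the E14.5 females and not the E14.5 males. Ndufs7, a core iron-sulfur subunit of complex I (chr10:80249449-80256794), had 46.7, 42.4 and 40.3 FPKM in E14.5 females and 24.8, 29.1 and 27.3 FPKM in E14.5 males, a log2 ratio of 0.63 ± 0.0685 (SE, adjusted p = 6.04e-06). All E11.5 libraries, at 33.3 to 40.2 FPKM, lay between the sexes. Atp5d, the delta subunit of the ATP synthase, had 136, 117 and 101 FPKM in E14.5 females and 84.8, 79.6 and 77.7 FPKM in E14.5 males, against 99.1, 100.2 and 98.7 FPKM in E11.5 females and 118, 114 and 116 FPKM in E11.5 males, and its log2 ratio at E14.5 was 0.51 ± 0.0725 (SE, adjusted p = 6.51e-05). Females were the higher sex at E14.5 and the lower one at E11.5. Ndufa4l2 was also higher in females at E14.5, with a log2 ratio of 0.62 (adjusted p = 0.0183). Atp5mpl, a small proteolipid of the ATP synthase, was lower in females, with 4.26, 3.56 and 3.46 FPKM in E14.5 females and 6.38, 4.36 and 5.06 FPKM in E14.5 males and a log2 ratio of -0.51 ± 0.181 (SE, adjusted p = 0.0313). This call was lost without E14.5 male 1, without E14.5 female 2 or without E14.5 female 3. It was also lost without the second E14.5 mother and with limma.

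The sex differences at E14.5 moved with the base composition of the transcripts. Across the 78 tested subunit genes of known GC content, the log2 ratio and the GC content had a Spearman correlation of 0.499, and across 14177 tested genes of 0.735. All genes share the same 6 libraries, so these values are descriptions. Rn45s, Rmrp and Rpph1 stand for RNA without a poly(A) tail, and Lars2, a protein-coding gene, was listed with them. These genes were higher in E14.5 females in 4 of 4 cases, with a median log2 ratio of 3.01. At E11.5 3 of the 4 were called higher in females, with a median of 1.24. With age 3 were called lower at E14.5, with a median log2 fold change of -0.97, which was 0.22 in females and -1.91 in males. All 4 passed the interaction test, with a median of 1.88. The part of base composition and of these RNAs in the differences between the sexes and ages was not tested. With the offsets for GC content and length, 2170 of all 14454 tested genes were higher in females with no minimum fold and 1040 lower. There 21 of the 79 subunit genes were higher, to be set beside those 2170 of 14454, and 7 lower, against a background of 7.20%. The background in either direction was 22.2%. Of the 35 differences, 20 kept their direction and their call. Past the fold minimum there were then Ndufc1, higher in females (background 0.809%), and Atp5mpl, lower (background 1.88%). The log2 ratio was then 0.44 (adjusted p = 3.49e-06) for Uqcrc1, 0.31 (adjusted p = 0.00467) for Ndufs7 and 0.17 (adjusted p = 0.0194) for Atp5d.

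The change with age differed between the sexes for 34 of the 79 subunit genes, by the interaction of sex and age called at the adjusted p alone. In 24 the change was more positive in females, against a background of 20.6% of all tested genes, and in 10 more positive in males, against 18.5%. In 18 of the 34 the fitted changes had opposite signs in the sexes. In females 2 subunit genes were called higher at E14.5 (Ndufa4l2 and Ndufa11, background 25.0%) and 2 lower (Atp5mpl and Uqcrb, background 19.6%). In males 0 were called higher (background 24.7%) and 10 lower (background 20.4%). The log2 fold changes of these 10 were Atp5g2 (-0.69), Ndufb6 (-0.67), Uqcrc1 (-0.64), Uqcr10 (-0.64), Ndufc1 (-0.58), Uqcr11 (-0.55), Atp5e (-0.54), Ndufa12 (-0.53), Sdhd (-0.52) and Ndufb8 (-0.52). In males 5 subunit genes had an unadjusted p under 0.05 in the upward direction, as did 5508 of all 14454 tested genes. With the offsets for GC content and length, 3 subunit genes were called higher (background 22.8%) and 0 lower (background 18.6%) in females, and 1 higher (background 23.1%) and 0 lower (background 19.9%) in males. The median log2 fold change with age, without the offsets, was -0.084 in females and -0.19 in males, and with them 0.081 in females and 0.0095 in males.

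The smallest p values of the interaction belonged to Uqcrc1, Cox6a1, Atp5g2, Ndufs7, Ndufc2 and Atp5d. Cox6a1, a subunit of complex IV, had 235, 211 and 222 FPKM in E14.5 females and 174, 175 and 169 FPKM in E14.5 males, against 174, 186 and 181 FPKM in E11.5 females and 225, 221 and 219.9 FPKM in E11.5 males. Females were above males at E14.5 and below them at E11.5. The interaction was 0.60 ± 0.0640 (SE, adjusted p = 1.23e-05). Cox6a1 has the highest GC content of the tested subunit genes, 60.9%, and with the offsets for GC content and length its interaction was 0.075 (adjusted p = 0.587). Atp5g2 had 172, 163 and 150.2 FPKM in E14.5 females and 123, 113 and 109 FPKM in E14.5 males, against 171, 173 and 175 FPKM in E11.5 females and 198, 201 and 193 FPKM in E11.5 males. The sexes overlapped at neither age, with females higher at E14.5 and lower at E11.5. Its interaction was 0.61 ± 0.0707 (SE, adjusted p = 1.99e-05), and 0.26 (adjusted p = 0.00679) with the offsets. The interaction of Uqcrc1 was 0.58 ± 0.0618 (SE, adjusted p = 1.15e-05), and 0.36 (adjusted p = 0.000552) with the offsets. For Ndufc2 it was 0.54 (adjusted p = 8e-05), and 0.56 (adjusted p = 0.00126) with the offsets. Of the 34 genes, 18 were called in the same direction with the offsets, a fit that called 19 subunit genes with a more positive change in females (background 8.50%) and 6 in males (background 3.69%). Among the 39 subunit genes of higher GC content (51.3% to 60.9%), 17 had a more positive change in females and 0 in males, and among the 39 of lower GC content (41% to 51.03%) 7 and 9.

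**Figure D4:**
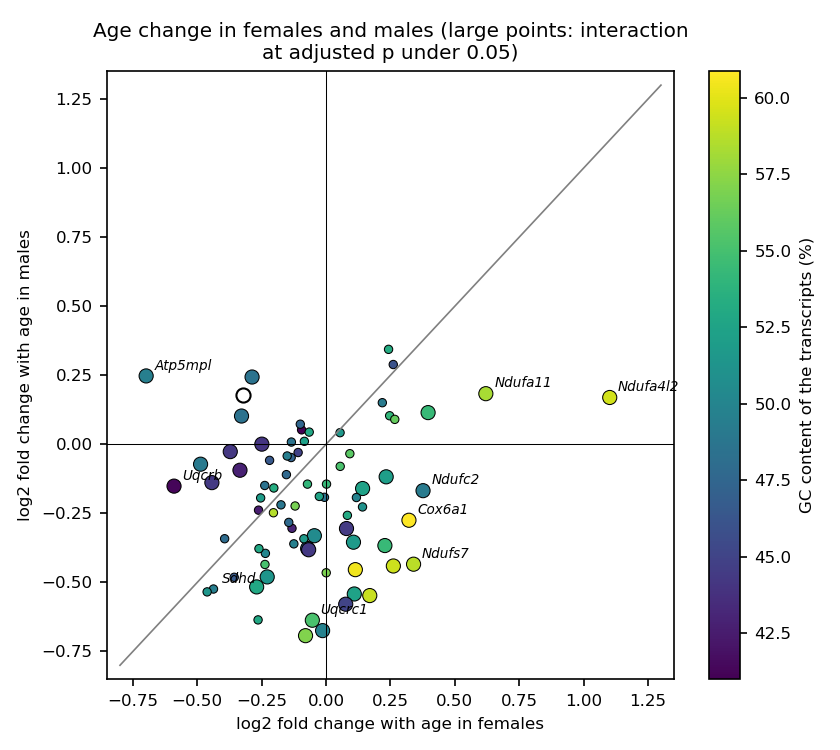
Log2 fold change with age (E14.5 over E11.5) of the 79 tested subunit genes in females (horizontal axis) and males (vertical axis), coloured by the GC content of the transcripts (white where it is not known), with the diagonal of equal change. The 34 large points passed the interaction test, and 24 of them lie right of the diagonal, where the change is more positive in females.

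Genes around the complexes were compared in the same fit, and their counts stand beside the backgrounds of 24.4% higher and 19.0% lower, or of 23.2% and 19.2% with the offsets for GC content and length. Of 49 tested assembly factors, which build the complexes without being part of them, 2 rose and 4 fell, with a median log2 fold change of -0.16. With the offsets 4 were called higher and 1 lower, with a median of -0.014. Ttc19, a factor of complex III, had 22.8 ± 4.34 CPM at E14.5 and 13.8 ± 1.38 CPM at E11.5 (SD, n = 6 each, log2 fold change 0.72, adjusted p = 6.79e-07). Lyrm7, also of complex III, had a log2 fold change of 0.69, and Nubpl, which serves the iron-sulfur centres of complex I, of -0.68, inside the minimum at -0.47 with the offsets. Of 17 tested genes of the tricarboxylic acid cycle and pyruvate dehydrogenase 0 rose and 2 fell, with a median of -0.17, and 3 were called lower with the offsets. The 2 were Suclg2, a subunit of succinyl-CoA synthetase, at 39.4 ± 3.29 CPM at E14.5 and 76.8 ± 6.16 CPM at E11.5 (log2 fold change -0.96), and Fh1, fumarase, at 49.6 ± 2.19 CPM at E14.5 and 85.8 ± 3.32 CPM at E11.5 (log2 fold change -0.79). Of 17 tested carriers and partners, such as cytochrome c and enzymes of ubiquinone synthesis, 0 rose and 3 fell, with a median of -0.19. The log2 fold changes were -0.53 for Coq7, -0.53 for Slc25a5 and -0.52 for Higd1a. With the offsets none of the carriers and partners was called, and these values were -0.39, -0.35 and -0.38 in the same order.

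Of 21 tested regulators of mitochondrial genes 4 rose and 4 fell, with a median log2 fold change of -0.18. With the offsets 3 were called higher and 5 lower. Esrrg, an orphan nuclear receptor, had 25.4 to 31.9 CPM at E14.5 and 8.10 to 13.6 CPM at E11.5 (log2 fold change 1.38), and the coactivator Ppargc1a had 13.6 to 18.5 CPM at E14.5 and 8.60 to 10.1 CPM at E11.5 (log2 fold change 0.80). Tfb1m, which methylates mitochondrial ribosomal RNA, had 9.58 to 11.98 CPM at E14.5 and 20.4 to 23.7 CPM at E11.5 (log2 fold change -1.07). None of the 3 overlapped between the ages. The factors behind the motifs searched in the promoters, named after their values were seen, had log2 fold changes of -0.19 (Nrf1), -0.40 (Gabpa) and -0.43 (Yy1). In the fit with the offsets these were -0.38, -0.43 and -0.57 in the same order.

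**Figure D5:**
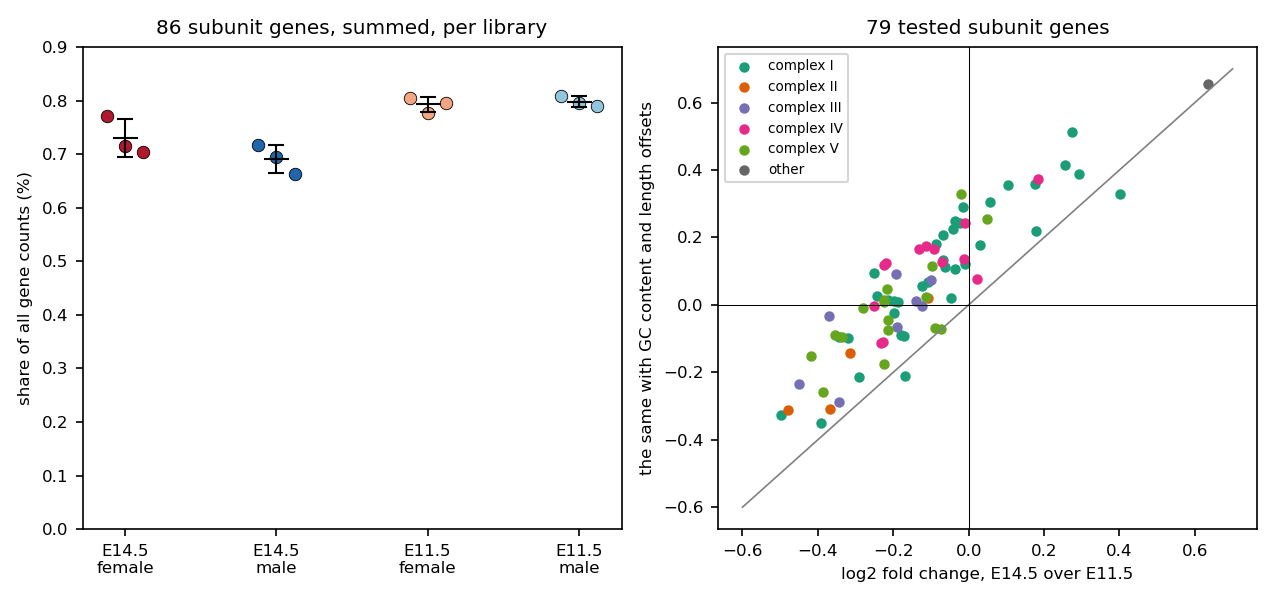
Left, the share of all gene counts (%) held by the 86 subunit genes in each library (points) with the mean and SD of the 3 libraries of each group, where all E14.5 libraries lie below all E11.5 libraries. Right, the log2 fold change with age of the 79 tested genes (horizontal axis) against the same value with offsets for GC content and transcript length (vertical axis), coloured by complex, where most points lie above the diagonal.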

How the data were processed

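Bulk RNA-seq of 12 telencephalons was read from 1 table. The authors aligned reads to GRCm38 with STAR 2.6.0c and deposited estimated counts per gene (82.7% of them whole) and FPKM values for each sample. How reads matching several genes were shared is not given in the sources used here. Estimated counts were rounded and tested with edgeR 4.0.16 in R 4.3.3 (robust quasi-likelihood, TMM, 4 groups, 8 residual degrees of freedom), with Benjamini-Hochberg adjustment over the 14454 genes that averaged 16 or more counts in 1 of the groups. The deposited FPKM gave the levels. Each library held 17551763 to 28355361 gene counts. A count of 0 allows 3 counts.

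The members and lists (assembly factors, tricarboxylic acid cycle, regulators, carriers, cell type markers) were chosen with earlier results of these data known. Full statistics went to genes called with age, to the 2 structural subunits per complex with the highest level and the 2 with the largest change, to alternative isoforms, Sdha and the genes called between the sexes or, by the 6 smallest p values, for the interaction. Other lists gave their 3 largest called changes. The values of 1 gene that this rule takes in are not reported here. Embryos of one mother share a litter, so p-values measure the spread between these embryos.

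Alternatives were DESeq2 1.42.0, limma 3.58.1 on log2(FPKM + 0.1) and log2(FPKM + 1), other filters and scalings, offsets for GC content and length (loess span 0.5, GC content known for 93.6% of genes), left-out replicates and a replicate block. Deviations of females and males of the same mother correlated at 0.0919, 0.1875 and 0.2593 at E11.5, and at E14.5 at 0.2258 to 0.3473 for the first mother and at 0.636 for the second, where the mothers come from the study's embryo table. No sample column was left unused.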

Additional observations from a re-analysis of the deposited data

Results flagged for a closer look

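For 34 subunit genes the change with age differed between females and males by the interaction test, more positive in females for 24 and in males for 10, against 20.6% and 18.5% of all tested genes. With offsets for GC content and length 25 were called. The 6 with the smallest p values had interactions on the log2 scale (the change in females minus that in males) of 0.58 for Uqcrc1, 0.60 for Cox6a1, 0.61 for Atp5g2, 0.77 for Ndufs7, 0.54 for Ndufc2 and 0.70 for Atp5d. Each is a difference between the sexes in the same contrast of ages, tested by the interaction term of edgeR's quasi-likelihood fit. With the offsets that of Cox6a1 was 0.075 (edgeR, adjusted p = 0.587) and no longer called.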

How the results depend on the processing

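The count of subunit genes higher at E14.5, 1, was 0 with a mean count of at least 100, with limma on log2(FPKM + 1), in males only or with a log2 fold change above 1, 2 with the offsets for GC content and length or in females only, and 9 by the adjusted p alone. The count lower at E14.5, 0, was 1 with no filter on low counts, 3 with limma on log2(FPKM + 0.1), 2 with limma on log2(FPKM + 1), 2 with counts summed per mother, 10 in males only, 2 in females only and 41 by the adjusted p alone. The 34 interaction calls were 0 with a log2 fold change above 1, 25 with the offsets for GC content and length and 42 with the replicate block. The 5 calls between the sexes at E14.5 were 3 with DESeq2's Wald test or a mean count of at least 100, 2 with the offsets alone or, added after seeing the data, with the replicate block, 35 by the adjusted p alone and 0 with a log2 fold change above 1. At E11.5 there were 3 by the adjusted p alone. Leaving out each replicate gave 1 to 1 genes higher, 0 to 2 lower (2 without E14.5 female 1 or E14.5 male 1, and 1 without E14.5 male 2, E11.5 female 2, E11.5 female 3 or E11.5 male 3), 28 to 37 interaction calls and, between the sexes, 4 to 7 calls at E14.5 and 0 to 0 at E11.5. With the offsets the age change of 36 of the 79 subunit genes turned sign, in each case to a positive value, and 14 of the 36 had passed the adjusted p alone without them. Among these were Atp5g1 (0.0088), Cox7c (0.12), Ndufa4 (0.12), Sdhb (0.021), Uqcrc2 (0.011) and Uqcrh (0.091), and, at an adjusted p above 0.05 in the fit without offsets, Atp5mpl (0.013), Cox4i1 (0.14), Cox6b1 (0.24), Cox6c (0.17), Cox7a2 (0.16) and Ndufs7 (0.021). In males 14 signs differed from those of the fit of both sexes, among them Ndufc2 (-0.17) and Cox6a1 (-0.28), and in females 16. The cause was not tested. With the mother as replicate block, 5 genes were called between the sexes at E14.5. The 3 subunit genes past the adjusted p alone between the sexes at E11.5 became 17 with this block, 15 with the block and the offsets and 15 without the second E14.5 mother. For the age counts the block was the replicate number, not the mother, and it parts E14.5 replicates 1 and 2, which share a mother. No other count of subunit genes moved by over 1.5 times with either block alone. Replicate numbers did not pair the ages, where correlations of deviations were -0.1604 to 0.0516.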
